A study of Sorghum bicolor with 14 samples.

Results

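TST1 and TST2 are a pair of genes that encode tonoplast sugar transporters, and their transcript levels were followed in the middle stem internode of sweet sorghum. The genes were taken by identifier, Sobic.001G312900 for TST1 and Sobic.004G099300 for TST2, and these 2 genes were each found in 1 row of both deposited tables, among 32752 named rows for development and 32726 rows for drought. The names TST1 and TST2 come from published work on sorghum and not from the tables.

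All plants were Sorghum bicolor of the sweet variety CSV24SS, grown for its sugary stem juice, and the 14 samples fell into 7 groups of 2. Development plants grew in a watered soil bed given nitrogen fertiliser and were sampled at floral initiation (FI), booting (B, with the panicle still enclosed by the flag leaf sheath), the milky stage of the grain (MS) and soft dough (SD). Drought plants grew singly in pots, lost their water supply from the flag leaf stage on, and were harvested at booting at soil moisture readings of about 13% (D1), 7% (D2) and 2% (D3). A drier soil goes with a longer time without water here, and no watered pots are analysed. Soil moisture, time without water and plant age therefore cannot be told apart. The 2 series ask which stem genes differ as the plant matures and as the soil dries.

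Sweet sorghum keeps much of its sucrose in the vacuoles of stem parenchyma cells. Sugar reaches the vacuole across its membrane, the tonoplast, through transporters of the TST family (formerly TMT), which exchange protons from inside the vacuole for sugar from the cytosol. In Arabidopsis these proteins load glucose and fructose into leaf vacuoles, and in sugar beet a family member loads sucrose into the taproot. Sucrose leaves the vacuole through proton-coupled carriers such as the rice tonoplast sucrose transporter, while SWEET proteins pass sugars across membranes without a proton gradient.

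The deposited values are FPKM, a count of sequenced fragments corrected for gene length and library size, with 1 value by the authors for each group. Its 2 samples are not given apart, so the spread between replicates is not known and no test was run. Higher and lower therefore describe 2 values. A gene counted as different when log2(FPKM + 1) differed by at least 1, that is 2-fold. Folds are ratios of the FPKM values. Genes that reached 1 FPKM in some column of a table are called measured. The depth of the samples is unknown. Because these are whole internodes, fewer cells of a type and less RNA per cell cannot be told apart. Between 15581 and 16902 genes reached 1 FPKM in a group. Of the tissue's expected transcripts, the cellulose synthase Sobic.002G118700, an enzyme of the stem cell wall, was present in every group, at 27.6 FPKM (D3) to 570 FPKM (FI). The other 2 listed cellulose synthases were lower than this gene in every group. Sobic.001G224300 was at 30.3 FPKM at FI, 12.9 at B, 1.91 at MS and 9.73 at SD. In the pots it was at 1.74 FPKM in D1, 0.0922 in D2 and 0.868 in D3. Sobic.003G296400 was at 62.7 FPKM at FI, 23.4 at B, 3.54 at MS and 22.0 at SD. In the pots it was at 1.74 FPKM in D1, 0.354 in D2 and 1.81 in D3. Low values of these 2 genes were thus seen at MS as well as in the pots. Leaf marker genes were not looked up, because the tables hold no gene descriptions.

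TST1 lies on chromosome 1, 59989926 to 59995061, a span of 5136 bases, and TST2 on chromosome 4, 8829373 to 8834611, a span of 5239 bases, in the coordinates of the deposited file, which names no genome build. Both rows carry the same coordinates in both tables, and 0 other rows overlap them. The nearest row to TST2, Sobic.004G099200, ends 494 bases before it, and the nearest to TST1, Sobic.001G312801, ends 4144 bases before it in the development table. Neither locus was merged with a neighbour, so the values below belong to a row of that gene alone.

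Both transporters were among the abundant stem transcripts in every group. TST1 had 177 FPKM at FI, 269 at B, 261 at MS and 138 at SD. TST2 had 130 FPKM at FI, 237 at B, 199 at MS and 91.0 at SD. Both genes thus had their highest value at booting and their lowest at soft dough, in the order B, MS, FI, SD. That order was shared by 793 of 18338 measured genes (4.32%), place 13 among the 24 possible orders by frequency, so the order itself was neither rare nor frequent. The highest and lowest stages of TST1 differed 1.96-fold and those of TST2 2.60-fold. Ranked by level within a group, TST1 stood at place 691 of 16902 genes at FI, 450 of 15715 at B, 443 of 15835 at MS and 1040 of 16210 at SD. TST2 stood at place 968 at FI, 509 at B, 613 at MS and 1574 at SD. These places do not depend on scaling between columns, and for both genes the place furthest from the top was that at SD.

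**Figure D1:**
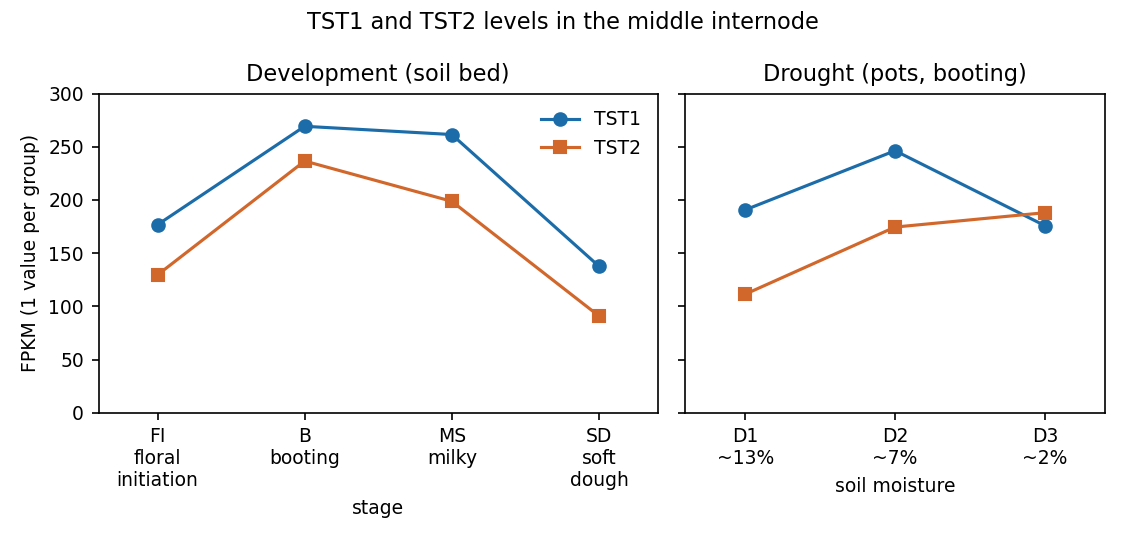
FPKM of TST1 (circles) and TST2 (squares), 1 value by the authors per group and no error bars because the samples of a group are not given apart, for the 4 development stages (left) and the 3 soil moisture readings (right). TST1 lies above TST2 in every group but D3, where TST2 has 188 FPKM and TST1 176 FPKM.

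At booting both transporters were higher than at floral initiation but short of 2-fold. TST1 was at 269 FPKM in B, against 177 in FI, 1.52-fold higher, and TST2 was at 237 FPKM in B, against 130 in FI, 1.83-fold higher. The log2 differences were 0.60 and 0.86. Of all measured genes 26.8% were past 2-fold in either direction here, and 0 of the 2 transporters were among them. The 1368 genes that averaged at least 100 FPKM over the stages, the abundance range of the pair, had a median difference of 0.20, while the median over all measured genes was -0.0047. With columns scaled to those abundant genes the differences were 0.38 for TST1 and 0.64 for TST2.

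From booting to the milky stage the levels were close, with 0 of the 2 past 2-fold against 14.2% of measured genes. TST1 was at 261 FPKM in MS, against 269 in B, and this log2 difference of -0.04 changed sign to 0.02 after quantile normalization. TST2 was at 199 FPKM in MS, against 237 in B, 1.19-fold lower. Compared with FI, MS values were 1.48-fold higher for TST1 and 1.53-fold higher for TST2, again with 0 of 2 past 2-fold, where 25.6% of genes were.

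At soft dough both transporters were lower than at the milky stage. TST2 was at 91.0 FPKM in SD, against 199 in MS, 2.18-fold lower, and TST1 at 138 FPKM in SD, against 261 in MS, 1.90-fold lower. TST2 alone was past 2-fold, in a comparison where 10.7% of genes were past it in either direction and 4.27% were past it and lower. A larger change in either direction was seen in 8.28% of measured genes for TST2 and in 12.7% for TST1. Among genes that averaged at least 100 FPKM those shares were 12.4% and 19.7%. The log2 differences were -1.12 for TST2 and -0.92 for TST1, and after quantile normalization TST1 was past 2-fold as well, at -1.07.

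Set against booting, soft dough values were lower by more. TST2 was at 91.0 FPKM in SD, against 237 in B, 2.60-fold lower, and TST1 at 138 in SD, against 269 in B, 1.96-fold lower. Here 21.8% of genes were past 2-fold, 9.65% past it and lower, and TST2 was among them. TST1 had a log2 difference of -0.96, which became -1.05 after quantile normalization and so passed 2-fold. Set against floral initiation, SD values were 1.28-fold lower for TST1 and 1.42-fold lower for TST2, with 0 of 2 past 2-fold where 27.3% of genes were. The log2 differences were -0.36 and -0.51, and with columns scaled to abundant genes -0.60 and -0.75. The last stage thus had the lowest value of each gene, but it stood closer to the first stage than to booting.

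Cellulose synthases, enzymes of the stem cell wall, moved against the pair in 2 of the 3 consecutive steps. All 3 listed genes (Sobic.002G118700, Sobic.001G224300 and Sobic.003G296400) were at least 2-fold lower at B than at FI, where both transporters were higher. Of 18338 measured genes 26.8% were past 2-fold there in either direction, 3212 of them lower. All 3 were at least 2-fold higher at SD than at MS, where both transporters were lower. There 10.7% of genes were past 2-fold in either direction, 1186 of them higher. At MS, set against B, 2 of the 3 were at least 2-fold lower, while Sobic.002G118700 was higher and within 2-fold. In that step 14.2% of genes were past 2-fold in either direction, 1204 of them lower. At SD all 3 lay below their FI values, as did the pair. Their summed level was 663 FPKM at FI, 118 at B, 145 at MS and 374 at SD, and 56.7 in D1, 92.2 in D2 and 30.2 in D3. Their part in the result was not tested.

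**Figure D2:**
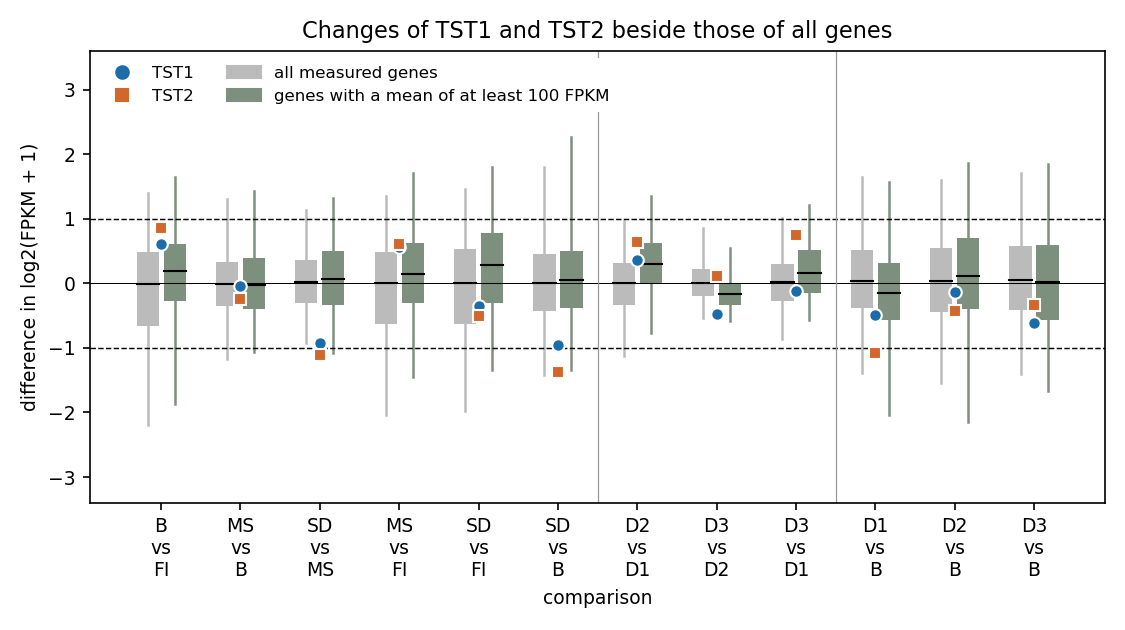
Difference in log2(FPKM + 1) of TST1 (circles) and TST2 (squares) in 12 comparisons, beside all measured genes (grey) and genes averaging at least 100 FPKM (green); boxes span the 25th to 75th percentile, thin lines the 5th to 95th, black bars the median, and dashed lines mark 2-fold. TST2 passes 2-fold in SD vs MS (-1.12), SD vs B (-1.37) and D1 vs B (-1.08), and TST1 in none of the 12, with values as deposited.

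In the drying pots the pair parted. TST1 had 191 FPKM in D1, 246 in D2 and 176 in D3, so its highest value fell at the middle reading. TST2 had 111 FPKM in D1, 175 in D2 and 188 in D3 and was higher at each drier reading. The order of TST1 (D2, D1, D3) was shared by 10.4% of 16801 measured genes and that of TST2 (D3, D2, D1) by 15.5%. TST1 stood at place 632 of 16039 genes in D1, 595 of 15581 in D2 and 796 of 16077 in D3. TST2 stood at place 1160 in D1, 856 in D2 and 740 in D3, and so moved up the ranking at each drier reading.

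At 7% moisture both transporters were higher than at 13%. TST1 was at 246 FPKM in D2, against 191 in D1, 1.29-fold higher, and TST2 at 175 in D2, against 111 in D1, 1.57-fold higher. None of this reached 2-fold, which 10.8% of genes did. The 1413 genes of this table that averaged at least 100 FPKM had a median difference of 0.30, beside 0.37 for TST1 and 0.64 for TST2. With columns scaled to these abundant genes, TST1 differed by 0.06 and TST2 by 0.33, so the TST1 increase was about that of abundant genes in general.

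At 2% moisture TST1 was lower than at 7% while TST2 was slightly higher. TST1 was at 176 FPKM in D3, against 246 in D2, 1.40-fold lower. TST2 was at 188 FPKM in D3, against 175 in D2, 1.08-fold higher. Few genes moved at this step, 4.83% past 2-fold and 0 of the 2 transporters among them. A larger change than that of TST1 was seen in 17.2% of measured genes, and a larger one than that of TST2 in 71.2%. Abundant genes had a median difference of -0.16, and scaled to them TST1 differed by -0.33 and TST2 by 0.26.

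Between the driest and the wettest reading TST2 was higher and TST1 nearly level. TST2 was at 188 FPKM in D3, against 111 in D1, 1.69-fold higher, a log2 difference of 0.75. TST1 was at 176 FPKM in D3, against 191 in D1, a log2 difference of -0.12. Neither was past 2-fold, as 8.62% of genes were. The change of TST2 was exceeded, in either direction, by 15.3% of measured genes and by 17.9% of those that averaged at least 100 FPKM. The log2 change of TST2 minus that of TST1 was 0.86. Scaling a column by 1 factor shifts both genes alike, so this difference between them does not rest on such a factor. With abundant genes as the base the changes were 0.59 for TST2 and -0.27 for TST1.

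The balance of the pair can be read within a group, since FPKM is scaled to gene length. The ratio of TST2 FPKM to TST1 FPKM was 0.733 at FI, 0.879 at B, 0.760 at MS and 0.661 at SD. In the pots it was 0.585 in D1, 0.709 in D2 and 1.07 in D3. TST1 thus had the higher value in 6 of 7 groups, and TST2 in D3, where the soil was driest. With no spread known, the D3 ratio of 1.07 cannot be told from 1. The lowest and the highest ratio both fell among the drought groups. Each ratio stayed on its side of 1 with a pseudocount of 1 FPKM and after quantile normalization, by construction. Both settings keep the order of genes within a column, so neither could move a ratio across 1.

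**Figure D3:**
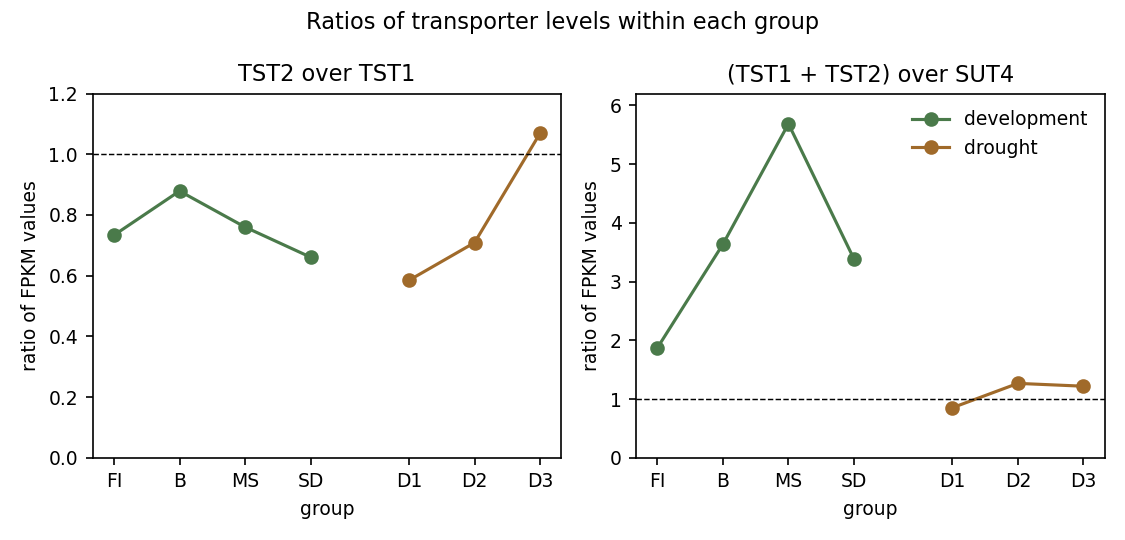
Ratio of TST2 to TST1 (left) and of the summed TST1 and TST2 level to that of SUT4 (right), as ratios of FPKM values within each group, for the development stages (green) and the drought pots (brown); the dashed line marks a ratio of 1. The left ratio exceeds 1 only in D3 (1.07), and the right ratio lies at 1.87 or above in the 4 development stages and between 0.852 and 1.27 in the pots.

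The soil-bed plants at booting were at the same stage as the pots and were compared with them. The 2 tables were taken as normalised separately. Pots, watering, fertiliser, other growth conditions and table cannot be told apart in these differences. The same B column served in all 3 comparisons. TST1 was at 191 FPKM in D1, 246 in D2 and 176 in D3, against 269 in B. TST2 was at 111 FPKM in D1, 175 in D2 and 188 in D3, against 237 in B. All 6 pot values lay below the booting value of the same gene, which was its highest stage value. Over all measured genes the median log2 difference from B was 0.04 for D1, 0.03 for D2 and 0.05 for D3. TST1 in D2 was only 1.09-fold lower, and 83.8% of measured genes changed more. TST2 in D1 was the only one of the 6 past 2-fold, 2.12-fold lower with a log2 difference of -1.08. Of 18399 measured genes matched by name between the tables, 20.9% were past 2-fold here in either direction and 8.73% were past it and lower. With columns scaled to abundant genes TST2 in D1 fell short, at -0.96. In D2 and in D3, 0 of the 2 were past 2-fold, beside 22.8% and 22.6% of genes.

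The other transporters of the list did not share this course. The list holds 10 genes, the pair, 6 sucrose transporters (SUT) and 2 SWEET genes, and 7 of them were measured in both tables. SUT3, SUT5 and SUT6 stayed under 1 FPKM in every group. The development order of the pair (B, MS, FI, SD) was seen in 0 of the 5 other measured transporters. Only 4.32% of all measured genes had that order, so its absence from 5 genes does not set them apart. SUT1 and SUT2, proton-coupled sucrose carriers, had their highest development value at SD, where the pair was lowest. SUT1 was at 145 FPKM in SD and 120 in B, and SUT2 at 36.9 FPKM in SD and 23.1 in B. In the drought table SUT1 shares its locus with 11 rows in all, so its values there are uncertain. Both SWEET genes peaked at B like the pair, with Sobic.008G094000 at 210 FPKM and Sobic.004G133500 at 41.2 FPKM, but were higher at SD than at MS.

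Of the 5 other measured transporters, 2 were at least 2-fold higher and 0 lower at B than at FI, where 26.8% of all genes were past 2-fold. All 5 lay within 2-fold for MS vs B and for SD vs MS, where 14.2% and 10.7% of genes did not. For SD vs B 0 were higher and 1, SUT4, was lower, beside 21.8% of genes. In the pots 10.8% of genes were past 2-fold for D2 vs D1, 4.83% for D3 vs D2 and 8.62% for D3 vs D1. For D2 vs D1 0 were higher and 1, Sobic.004G133500, was lower, for D3 vs D2 that gene was the 1 higher, and for D3 vs D1 all 5 lay within 2-fold. Set beside booting, SUT4 was the 1 higher in D1, in D2 and in D3, and 2, SUT1 and Sobic.004G133500, were lower in D2, in comparisons where 20.9%, 22.8% and 22.6% of genes were past 2-fold. That call of SUT1 is uncertain, because 11 rows in all share its locus in the pots and only 1 row holds it in the stages. The median log2 difference of these 5 transporters was 0.44 for B vs FI, -0.74 for MS vs B, 0.15 for SD vs MS, -0.18 for D2 vs D1, -0.06 for D3 vs D2 and -0.25 for D3 vs D1. The median of -0.18 is the value of SUT1 and so uncertain as well. With the pair included, the medians of the 7 were 0.60, -0.25, 0.13, -0.09, -0.06 and -0.12 in that order, of which 0.60 and -0.12 are the values of TST1 and -0.25 that of TST2. Over all measured genes the corresponding medians lay between -0.0148 and 0.0193. For D3 vs D2 the median of the 7 turned positive, at 0.0057, after quantile normalization.

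SUT4 (Sobic.008G193300, chromosome 8, 62665982 to 62671469) is of the clade whose rice member sits in the tonoplast and exports sucrose from the vacuole. It was at 164 FPKM at FI, 139 at B, 80.9 at MS and 67.6 at SD, lower at each stage. In the pots it was at 355 FPKM in D1, 332 in D2 and 299 in D3. The summed FPKM of TST1 and TST2 was 306 at FI, 506 at B, 460 at MS and 229 at SD, and 302 in D1, 421 in D2 and 364 in D3. The ratio of that sum to SUT4 was 1.87 at FI, 3.63 at B, 5.68 at MS and 3.38 at SD. It was 0.852 in D1, 1.27 in D2 and 1.22 in D3. Set beside booting plants, SUT4 was at least 2-fold higher in all 3 pot groups, while the pair was lower. This ratio was lower in every pot group than in any development stage. SUT4 was higher in each pot group than at any stage. The sum of the pair was higher in each pot group than at SD, and below its FI value only in D1. Transcript ratios say nothing of the amount or activity of the proteins, and this ratio was chosen after the values were seen.

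Among all transporters of the list, TST1 and TST2 made up 47.7% of the summed FPKM at FI, 48.7% at B, 55.7% at MS and 35.7% at SD. In the pots they made up 30.6% in D1, 39.4% in D2 and 38.0% in D3. Their share was thus highest at the milky stage, where the summed level of the list was 826 FPKM, and lowest in D1, where that sum was 986 FPKM.

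**Figure D4:**
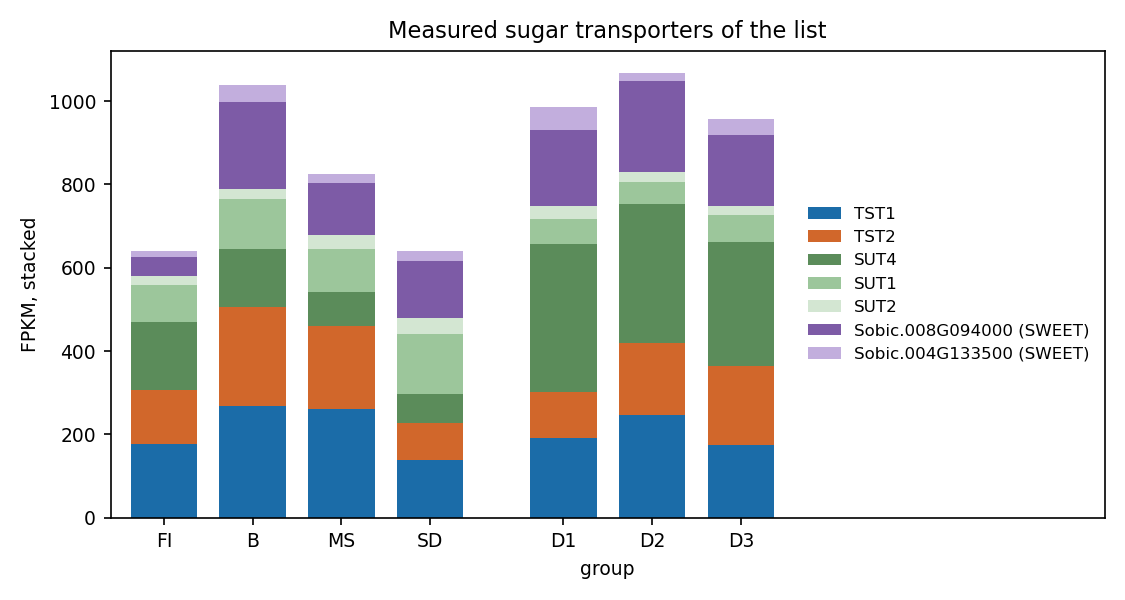
Stacked FPKM of the 7 measured sugar transporters of the list in each group, with TST1 (blue) and TST2 (orange) at the base, the sucrose transporters SUT4, SUT1 and SUT2 in green and the SWEET genes in purple. The pair accounts for 55.7% of the stack at MS and for 30.6% in D1, where SUT4 (355 FPKM) is the largest segment.

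Genes that split sucrose were taken as a further list of 4, vacuolar invertase and 3 sucrose synthases. The vacuolar invertase Sobic.004G004800, which cleaves stored sucrose inside the vacuole, had the same stage order as the pair, at 2.32 FPKM at floral initiation, 9.61 at B, 8.79 at MS and 1.95 at SD. It was singled out after its values were seen, and it stayed under 1 FPKM in all 3 pot groups, where the pair kept at least 111 FPKM. Sucrose synthases, which cleave sucrose reversibly in the cytosol, did not have this order in any of the 3 cases. It was the order of 4.32% of all measured genes. Sobic.010G072300, the most abundant, was at 1242 FPKM at FI, 818 at B, 371 at MS and 441 at SD. In the pots it was at 559 FPKM in D1, 630 in D2 and 679 in D3, the same order as TST2. Sobic.001G344500 was highest at FI, at 388 FPKM, and Sobic.001G378300 at MS, at 71.1 FPKM. Of the 4 genes, 1 was at least 2-fold higher and 1 lower at B than at FI, 1 higher and 1 lower at MS than at B, and 0 higher and 2 lower at SD than at MS. The shares of all measured genes past 2-fold in these 3 steps were 26.8%, 14.2% and 10.7%. All 3 measured in the drought table lay within 2-fold among the pots. Past it were 10.8% of genes for D2 vs D1, 4.83% for D3 vs D2 and 8.62% for D3 vs D1.

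How alike the courses of TST1 and TST2 were was measured as the root mean square difference of their log2(FPKM + 1) values, each centred on its mean within a table. The search covered 7616 genes averaging at least 10 FPKM in both tables. Over the 4 stages the pair differed by 0.146, which put TST2 in place 96 of 7615 genes by closeness to TST1, and TST1 in place 38 by closeness to TST2. Over the 3 soil moisture readings they differed by 0.361, and TST2 fell to place 5951 around TST1 and TST1 to place 4354 around TST2. Over all 7 columns the difference was 0.261, with places 789 and 191. The pair thus kept a like course through development and unlike courses in the drying pots. Each course in the pots rests on 3 values of unknown spread and stayed within 2-fold.

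Of the 5 genes closest to TST1 over the 7 columns, the first 2 were Sobic.004G331100 and Sobic.009G217100. The second of these was at 116 FPKM at FI, 137 at B, 160 at MS and 76.1 at SD, and at 98.7 in D1, 125 in D2 and 94.4 in D3. All 5 lay between 0.105 and 0.112 from TST1. The 5 closest to TST2 lay nearer, between 0.0737 and 0.0884, and were led by a row that holds both Sobic.002G271700 and Sobic.002G271800, followed by Sobic.007G219000. That first row was at 62.5 FPKM at FI, 125 at B, 106 at MS and 49.9 at SD, and at 163 in D1, 227 in D2 and 275 in D3. The tables do not pair these identifiers with gene names. Among so many genes, close courses over 7 values are numerous, and ranked by Pearson's r in place of the difference, 0 of the 5 for TST1 and 2 of the 5 for TST2 were found again.

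**Figure D5:**
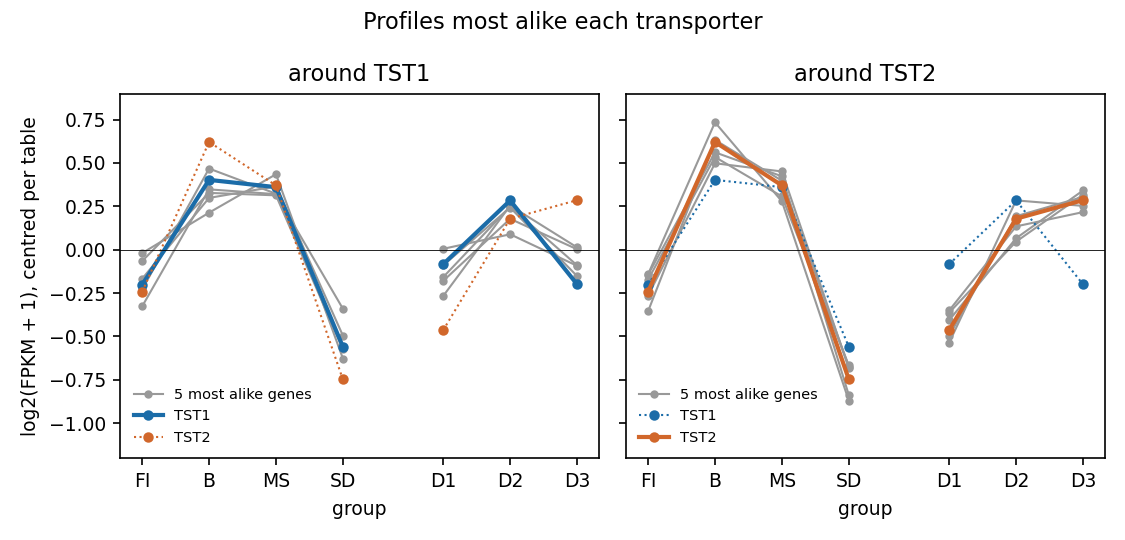
Values of log2(FPKM + 1), centred on the mean of each table, of TST1 (left, thick line) and TST2 (right, thick line) with the 5 genes closest to each in grey and the other transporter dotted. The dotted and thick lines run close over the 4 stages (a root mean square difference of 0.146) and part in D1 and D3 (0.361 over the 3 readings).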

How the data were processed

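Per the labels' protocols, RNA came from a modified trizol extraction and a stranded total RNA kit. The authors deposited FPKM values, 1 per gene and group, in 2 tables side by side, per the file headers. The sources used here give neither the genome build nor how a group's samples were combined. HISAT2 2.0.5, Bowtie2 2.2.9, Cuffdiff and cutadapt 1.8.1 appear, with no roles stated, in the submitters' processing notes. FPKM keeps no read count, so depth and the precision it gives are unknown. There were 0 value columns left unused.

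From these values, differences in log2(FPKM + 1) were computed for 12 comparisons, over 18338 measured genes for development, 16801 for drought and 18399 found by name in both tables. Rows with no gene name (2003) were left out. The planned limma test needs a value per sample, so values and folds are given with no test, as planned for that case. The members and lists were chosen with earlier results of these data known. By rule, the pair and its list are named in every group, sucrose-splitting genes when they reach 10 FPKM (vacuolar invertase, which does not, is named as an exception), and 5 look-alikes per gene, of which 2 are printed. Lists that needed gene descriptions, and promoter motifs and sequences, are not reported here. Alternatives were pseudocounts of 0.1 and 5 FPKM, other filters, median ratio rescaling and quantile normalization. Scaling to genes averaging at least 100 FPKM and the ratio of the pair to SUT4 were added after the data were seen. The code was tested on simulated data. Tools were matplotlib 3.10.9, numpy 2.4.6, pandas 2.3.3 and Python 3.11.15.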

Additional observations from a re-analysis of the deposited data

How the results depend on the processing

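The log2 differences of TST1 and TST2 in the 12 comparisons were recomputed under 5 alternatives, and 117 of those values kept their side of 2-fold, while 2 passed it and 1 fell short. After quantile normalization TST1 was past 2-fold at -1.07 for SD vs MS and at -1.05 for SD vs B. With columns scaled to abundant genes, TST2 for D1 vs B was at -0.96. The cause was not tested. No called value changed sign. The ratio of TST2 to TST1 stayed below 1 in 6 groups and above it in D3 under both settings tried. That is so by construction, since neither setting can change the order of 2 genes within a column. Of the 5 look-alikes per gene, Pearson's r found again 0 for TST1 and 2 for TST2, and a mean of at least 1 FPKM found again 1 for TST1 and 4 for TST2. Counting all named rows leaves the places by level as they are, by construction.

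Counts of all genes past 2-fold depended more on how low values were treated. With a pseudocount of 5 FPKM they were 2483 (4908 as reported) for B vs FI, 1221 (2604) for MS vs B, 957 (1969) for SD vs MS, 2410 (4702) for MS vs FI, 2600 (4999) for SD vs FI, 2064 (4000) for SD vs B, 863 (1818) for D2 vs D1, 362 (811) for D3 vs D2, 655 (1448) for D3 vs D1, 1998 (3851) for D1 vs B, 2181 (4197) for D2 vs B and 2186 (4159) for D3 vs B. With a pseudocount of 0.1 they were 3932 for MS vs B, 3212 for SD vs MS, 2728 for D2 vs D1, 1356 for D3 vs D2 and 2265 for D3 vs D1. Among genes averaging at least 5 FPKM they were 2865 for B vs FI, 1653 for MS vs B, 2805 for MS vs FI, 3077 for SD vs FI, 2605 for SD vs B, 461 for D3 vs D2 and 903 for D3 vs D1. Quantile normalization changed the split of 1696 higher and 3212 lower genes for B vs FI to 2195 and 2663, and that of 1664 and 3038 for MS vs FI to 2143 and 2538, with medians over all genes of 0.11 in both. Scaling to abundant genes changed splits to 1237 and 3864 for B vs FI, to 1414 and 3774 (2030 and 2969 as reported) for SD vs FI, to 446 and 1739 (768 and 1050) for D2 vs D1, to 690 and 837 (861 and 587) for D3 vs D1 and to 1790 and 2282 (2267 and 1930) for D2 vs B, with medians over all genes between -0.27 and 0.13 over the 12 comparisons. No paired analysis was possible because the file gives 1 value per group, and for the same reason no sample could be left out. The planned motif counts were not run. With no read counts, what depth limits cannot be stated.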
